A study of Citrus sinensis with 72 samples.

Results

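The 168 genes described here were low in the epicarp (EP) of the navel orange fruit and at like levels in its 3 inner tissues, the albedo (AL), the segment membrane (SM) and the juice sac (JS). They were chosen from the 30940 genes of the deposited table by their FPKM, which counts sequenced fragments relative to the length of the transcript and the size of the library. The mean FPKM of each tissue at each stage was turned into log2(mean FPKM + 1) and averaged over the 6 stages, giving 1 tissue average for each gene and tissue. A gene was kept when its highest mean was between 10 and 3000 FPKM, when the averages of AL, SM and JS lay within less than 1 of each other, and when the lowest of them was at least 1 above that of EP. The distance from EP to the lowest inner tissue is called the gap below. Of the 30940 genes, 13280 had a highest mean in the required range, 10731 of these had alike inner tissues, and 168 of these had the gap.

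The fruit came from the ‘Fengjie 72-1’ navel orange, *Citrus sinensis*, of which 9 trees on *Poncirus trifoliata* rootstock in 1 orchard were used, with 3 trees making 1 biological replicate and their fruits mixed. The tissues were separated by hand, so a sample holds every cell type of its layer together with what dissection left of its neighbours. The labels place stage 1 at 50 DAF (days after flowering), stage 2 at 80, stage 3 at 120, stage 4 at 150, stage 5 at 180 and stage 6 at 220, where the study's own text states another day for stage 4, and each of the 24 samples, named by tissue and stage (EP1 to JS6), had 3 replicates, which makes 72 RNA-seq libraries. No sample had a treatment or an altered gene, and tissue and age were the only differences between groups that the labels state. By the study's own list, RNA integrity was mostly higher in SM and JS than in EP and AL. Base quality also differed between groups and was highest in SM6. The part of these differences in the results was not tested. In such bulk samples, fewer cells of a type and less RNA per cell cannot be told apart.

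The EP is the coloured outer peel, which carries the oil glands, the wax layer and, in young fruit, photosynthetic cells. The AL is the white spongy layer under it, the SM is the wall around each segment, and the JS are the vesicles that fill the segment and store water, sugars and citric acid in large vacuoles. Fruit growth passes from cell division to cell enlargement and then to ripening, when the peel changes colour and acid falls in the juice. The IDs of the table could not be paired with gene names, since 0 of 30940 matched the reference table, so the genes are given by ID and no function is assigned to any of them. For the same reason the tissue labels were not checked against marker genes, and no sequence of a member is shown.

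The libraries held 15365221 to 25424354 fragments on genes, and all 168 genes were among the 20077 genes tested, the genes that reached an FPKM of 1 in 3 or more libraries. Libraries were scaled by their median ratio to a mean library, and the values below are scaled FPKM unless said otherwise. The median scale factor was 1.21 in EP, 1.07 in AL, 0.936 in SM and 0.918 in JS, so the tissue contrast of the 168 genes was wider after scaling, with a median gap of 1.57 in place of 1.37. In 3 libraries, replicate 1 of EP2, AL2 and AL3, the library with the most similar expression belonged to another sample: one of EP3 for the library labelled EP2, one of AL4 for that labelled AL2 and one of AL2 for that labelled AL3. Members showed it too. The gene Cs6g20220 was at 30.6 in that AL2 library against 419 and 443 in the other AL2 replicates, and at 399 in that AL3 library against 17.3 and 18.8 in the other AL3 replicates. Counts by stage and between stages that use these libraries are given below with and without them.

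The gap of the 168 genes ran from 1.00 to 3.30 with a median of 1.37, which is a 2.59-fold difference in FPKM + 1 between EP and the lowest inner tissue. It was at least 1.5 in 63 genes, at least 2 in 22 and at least 2.5 in 9. These values chose the genes and are a description, with no test. Just inside the threshold were Cs6g21550 and orange1.1t01578, with a gap of 1.00 each, and just outside were orange1.1t02582 at 0.99 and Cs2g17090 at 0.98, so the list has no natural edge. The gap was then read in libraries that had not chosen the genes. When the rule was applied to 2 of the 3 replicates, it chose 164, 156 or 169 genes, and in the replicate left out the gap was at least 1 in 128, 120 and 131 of them (78.0%, 76.9% and 77.5%) and above 0 in all of them. The median gap there was 1.31, 1.28 and 1.36, against 1.37, 1.37 and 1.34 in the replicates that chose the genes.

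The genes were lower in EP and not absent from it. Their mean scaled FPKM had a median of 7.28 in EP, 26.1 in AL, 34.8 in SM and 35.0 in JS. In EP it was under 3 in 53 genes and under 10 in 101. Together the 168 genes took 0.701% ± 0.0991 (SD, n = 18) of the summed FPKM of an EP library, 2.08% ± 0.435 of an AL library, 2.42% ± 0.575 of an SM library and 2.07% ± 0.376 of a JS library. Among the inner tissues, the scaled level was highest in SM for 96 genes, in JS for 55 and in AL for 17. It was lowest in AL for 113 genes, in JS for 41 and in SM for 14. In FPKM as deposited, AL was lowest in 78 genes and JS in 70, so AL was the most frequent lowest tissue on both scales and its margin over JS depended on the scaling. The transcript length implied by the FPKM steps had a median of 1611.5 bases in the 168 genes and 1641 in all genes tested.

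**Figure D1:**
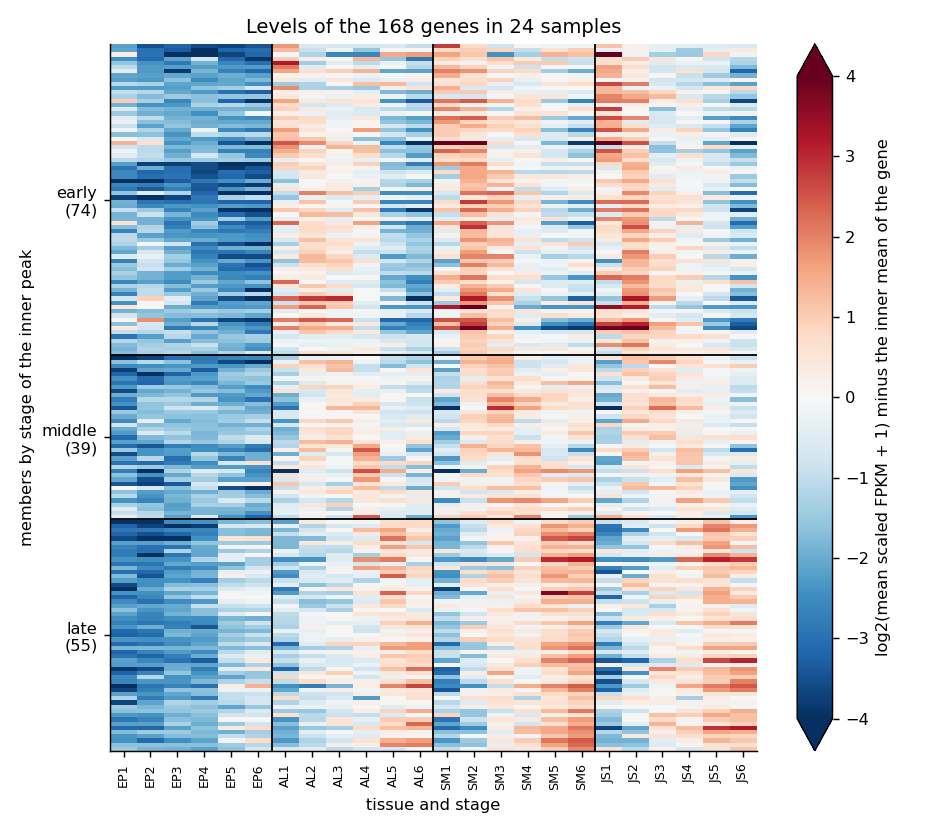
Colour shows log2(mean scaled FPKM + 1) of each of the 168 genes (rows) in each of the 24 samples (columns, 3 replicates each), minus the mean of that gene over the 18 inner samples. The 74 early, 39 middle and 55 late genes had their inner peak at stages 1 to 2, 3 to 4 and 5 to 6, and the EP columns are the lowest ones in most rows.

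In 14 of the 168 genes (8.33%) every one of the 18 EP libraries was below every one of the 54 inner libraries. The same held for 27 of the 20077 genes tested (0.134%), and since the rule used this contrast nothing is read from the count. Cs4g19310 was one of the 14. Its 18 EP libraries lay between 0.530 and 5.02, with a median of 1.00, while the lowest of the inner libraries was at 7.93, in AL. Cs1g05000 was another, and it had the highest log2 level averaged over the inner tissues and stages. It reached 197 to 332 in EP (median 249), 407 to 1245 in AL (median 644), 480 to 1706 in SM (median 802) and 506 to 1780 in JS (median 922), so a gene of this list can be abundant in EP as well. The largest gap, 3.30, belonged to Cs8g04525, with 0.655 to 12.01 in EP (median 2.36) and inner medians of 53.6 in AL, 68.0 in SM and 40.3 in JS. Within each stage its EP libraries were below all inner ones. With the stages pooled the groups overlapped, because EP reached 12.01 at stage 1 while AL fell to 10.5 at stage 5 and 4.51 at stage 6.

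Within a stage there are fewer libraries to separate, and the separation was more frequent. The 3 EP libraries were below all 9 inner libraries in 103 genes at stage 1, 132 at stage 2, 135 at stage 3, 157 at stage 4, 152 at stage 5 and 133 at stage 6. The shares of all genes tested were 13.1%, 7.60%, 8.38%, 11.8%, 11.7% and 11.3% at these stages. Since the rule used the contrast of EP and the inner tissues, nothing is read from the excess over these shares. Without replicate 1 of EP2, AL2 and AL3 the counts were 148 at stage 2 and 153 at stage 3, and the shares of all genes 12.2% and 10.8%, with fewer libraries to separate. The median over the 168 genes in each library put the EP libraries between 2.08 and 2.84 on the log2(scaled FPKM + 1) scale. The inner libraries lay between 3.96 and 5.53, with no overlap, a separation that the rule favoured as well. SM moved most on that scale. The SM libraries stood at 4.21, 4.34 and 4.48 at stage 1, like those of AL, and at 5.36, 5.49 and 5.53 at stage 2, above every AL library. The JS libraries of stage 1 were at 4.36, 4.94 and 5.00, of which the low one was replicate 2.

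**Figure D2:**
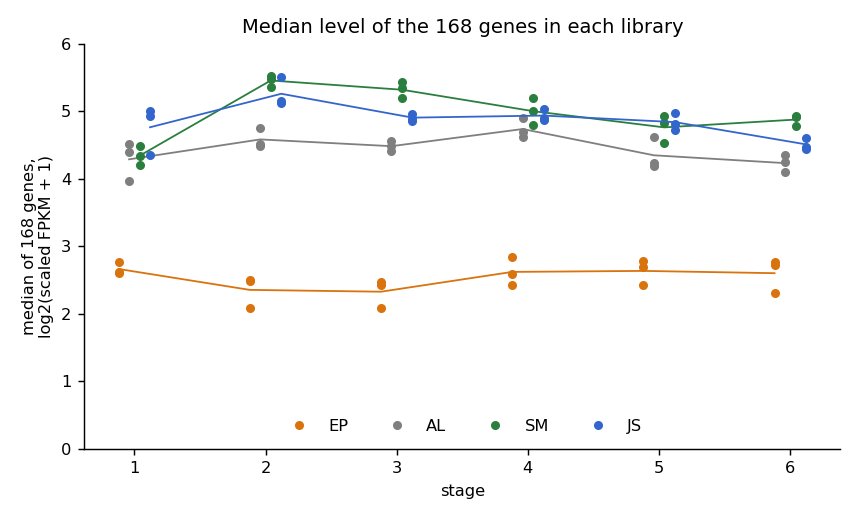
Each point is 1 library and shows the median over the 168 genes of log2(scaled FPKM + 1), by stage and tissue, and the lines join the means of the 3 replicates. The EP libraries lie between 2.08 and 2.84, below all inner libraries, which lie between 3.96 and 5.53, and the rule chose the genes for this contrast.

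The gap was not even over the season. Its median over the 168 genes was 1.03 at stage 1, 1.75 at stage 2, 1.92 at stage 3, 1.77 at stage 4, 1.31 at stage 5 and 0.93 at stage 6. Read in single replicates, the median had an SD between 0.0583 and 0.331 (n = 3 at each stage), largest at stage 1. At stages 3 to 5 all single-replicate medians were below the median given here, with 1.58, 1.66 and 1.76 at stage 3. The SD is thus the spread of a related measure. The gap was at least 1 in 85 genes at stage 1, in 150 at stage 4 and in 77 at stage 6, and at or below 0 in 28 genes at stage 1, in none at stages 3 and 4, and in 16 at stage 6. Without the 3 libraries the median was 1.63 at stage 2 and 1.89 at stage 3. It was above 0 at all 6 stages in 123 genes and at least 1 at all 6 stages in 30. A like shape appeared on the other side. The same rule turned round, with EP at least 1 above 3 alike inner tissues, chose 816 genes, and their median excess in EP was 0.98, 1.62, 1.83, 1.82, 1.24 and 1.07 at stages 1 to 6. How much of the shape came from the averaging over stages in the rule was not tested.

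**Figure D3:**
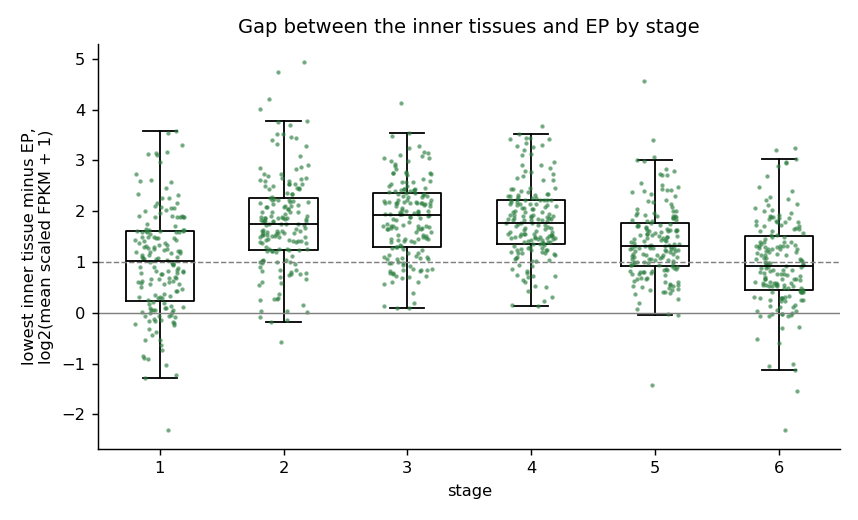
Each point is 1 of the 168 genes, and its height is the lowest inner tissue minus EP in log2(mean scaled FPKM + 1) at that stage, with 3 replicates behind each mean. Boxes span the quartiles with the median as a line and whiskers to 1.5 times the box, the dashed line marks a gap of 1, and the median rises from 1.03 at stage 1 to 1.92 at stage 3 and is 0.93 at stage 6.

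To ask which genes took part in the change of the gap, limma was run over all 20077 genes, with a Benjamini-Hochberg adjusted p under 0.05. It compared the change in the average of AL, SM and JS with the change in EP. That average stands in place of the lowest inner tissue, and tested changes of the gap are on this measure from here on. From stage 1 to stage 3 the inner tissues gained on EP in 81 of the 168 genes, against 16.3% of all genes tested, and lost in 13, against 22.5%. From stage 3 to stage 6 they gained in 8, against 13.5%, and lost in 59, against 9.57%. Without replicate 1 of EP2, AL2 and AL3 these counts were 82 and 16, and 8 and 69. Both comparisons were added after the medians by stage had been seen, and the 816 genes of the turned-round rule went the other way, with EP gaining in 401 to stage 3 and losing in 388 from stage 3.

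Cs3g13440 had the largest gain of the inner tissues from stage 1 to stage 3. At stage 1 its EP libraries were at 30.5, 31.5 and 45.0, and its 9 inner libraries ran from 12.3 to 34.3 with a median of 19.2, so the groups overlapped with EP on the higher side. At stage 3 the EP libraries were at 8.54, 10.3 and 10.5 and the inner ones ran from 27.6 to 98.7 with a median of 65.7. The groups no longer overlapped, and the difference between the changes was 3.42 ± 0.28 (SE) on the log2 scale (limma, adjusted p = 7.3e-15). At stage 1 the AL and SM libraries were below EP, while those of JS, at 17.9, 31.1 and 34.3, overlapped it. By stage 3 the gene had an EP-low pattern.

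Cs1g09130 showed the reverse. Its inner libraries ran from 15.7 to 30.4 (median 21.2) at stage 1 and from 0.861 to 6.92 (median 4.51) at stage 3, and EP was at 0.469, 0.532 and 1.04 and then at 0.366, 0.734 and 1.11. The log2 difference was -2.43 ± 0.36 (limma, adjusted p = 2.5e-07). At stage 3 the AL libraries, replicate 1 of AL3 among them, were at 0.861, 1.07 and 4.51. The lower ones, 0.861 and 1.07, lay inside the range of EP.

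From stage 3 to stage 6 the largest gain of the inner tissues was that of orange1.1t00612, a gene near 0 in young fruit. Its 9 inner libraries were at 0 to 6.94 (median 0.324) at stage 3 and at 4.39 to 60.8 (median 36.5) at stage 6, and EP went from 0.0496, 0.0770 and 0.189 to 0.885, 1.30 and 1.47. The stage 6 groups did not overlap, and the log2 difference was 2.79 ± 0.44 (limma, adjusted p = 1.4e-06). On fragments recovered from the FPKM values, limma-voom did not call it (adjusted p = 0.21).

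Over the whole season, stage 6 against stage 1, the gap changed in both directions. The inner tissues gained on EP in 37 of the 168 genes (22.0%), near the 19.8% of all genes tested. They lost in 48 (28.6%), against 21.4%. With FPKM as deposited the counts were 45 and 43, so the balance between the directions rested on the scaling.

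The inner average of Cs7g03630 gained most on EP. At stage 1 its EP libraries were at 37.6, 41.7 and 55.9, above the 3 AL and 3 SM libraries, which ran from 4.74 to 27.0, and below the JS libraries at 123, 167 and 179. At stage 6 EP was at 37.7, 52.2 and 57.1, and all 9 inner libraries stood between 290 and 1242 with a median of 437. EP ended where it began, the inner tissues rose past it, and the difference between the changes was 4.11 ± 0.61 (limma, adjusted p = 1.5e-07). In between it rose in EP as well, to 134, 236 and 311 at stage 4, when AL reached 1199, 1904 and 2406.

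In orange1.1t02791 the gap opened by a fall in EP. Its EP libraries went from 13.8, 21.6 and 29.4 at stage 1 to 0.831, 1.42 and 1.77 at stage 6. The inner ones were between 12.7 and 42.7 (median 23.7) at stage 1, overlapping EP, and between 12.7 and 143 (median 42.3) at stage 6, all above EP. The log2 difference was 4.04 ± 0.50 (limma, adjusted p = 1.4e-09).

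The inner average lost most on EP in Cs4g02260. Its EP libraries were at 1.89, 3.05 and 3.17 at stage 1 and at 32.1, 50.4 and 54.8 at stage 6, while the inner ones ran from 13.4 to 141 (median 59.0) and then from 7.82 to 33.5 (median 23.0). The order of the tissues was turned round by stage 6 except that the highest inner library exceeded the lowest EP one, and the log2 difference was -4.98 ± 0.48 (limma, adjusted p = 8.7e-13).

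Cs6g20620 also narrowed its gap, but EP did not pass the inner tissues. In EP it stood at 1.35, 1.57 and 2.70 at stage 1, at 8.32, 10.3 and 10.3 at stage 3 and at 22.7, 26.9 and 28.8 at stage 6. Its inner libraries ran from 26.6 to 255 (median 91.6), from 94.0 to 205 (median 142) and from 36.0 to 98.4 (median 51.1) at these stages. EP remained below all 9 inner libraries at each of them, and the log2 difference between stages 1 and 6 was -3.85 ± 0.22 (limma, adjusted p = 2.0e-21).

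The 168 genes did not share a single course. The average over AL, SM and JS peaked at stage 1 in 28 genes, at stage 2 in 46, at stage 3 in 21, at stage 4 in 18, at stage 5 in 23 and at stage 6 in 32. Stage 2 was thus the most frequent peak, with 27.4% of the 168 genes and 16.4% of all genes tested, and stage 1, the most frequent peak of all genes tested with 33.6%, held 16.7% of the 168. Without the 3 libraries the peaks numbered 26, 49, 24, 17, 23 and 29 at stages 1 to 6. From stage 1 to stage 2 the inner average rose in 97 genes, against 28.0% of all genes tested, and fell in 19, against 34.3%. Without replicate 1 of AL2 and AL3 and EP2 the counts were 100 and 25. In the 816 genes of the turned-round rule it rose in 107 and fell in 421, the opposite balance.

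From stage 2 to stage 3 the inner average rose in 41 genes, against 15.1%, and fell in 54, against 19.8%, and the counts were 55 and 57 without the 3 libraries. From stage 3 to stage 4 it rose in 42, against 19.5%, and fell in 48, against 21.5%, or 49 and 54 without the 3 libraries, but with FPKM as deposited it rose in 53 and fell in 29, so no direction is given for that step. From stage 4 to stage 5 it changed in 107, against 40.2%, and rose in 47, against 20.4%, and fell in 60, against 19.9%. In the last step, from stage 5 to stage 6, 10 genes rose, against 7.02%, and 49 fell, against 9.39%. At each of these steps a larger share of the 168 genes than of all genes passed the test. The 168 had a highest mean of at least 10 FPKM, which the other genes tested did not need, and its part in these shares was not tested.

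**Figure D4:**
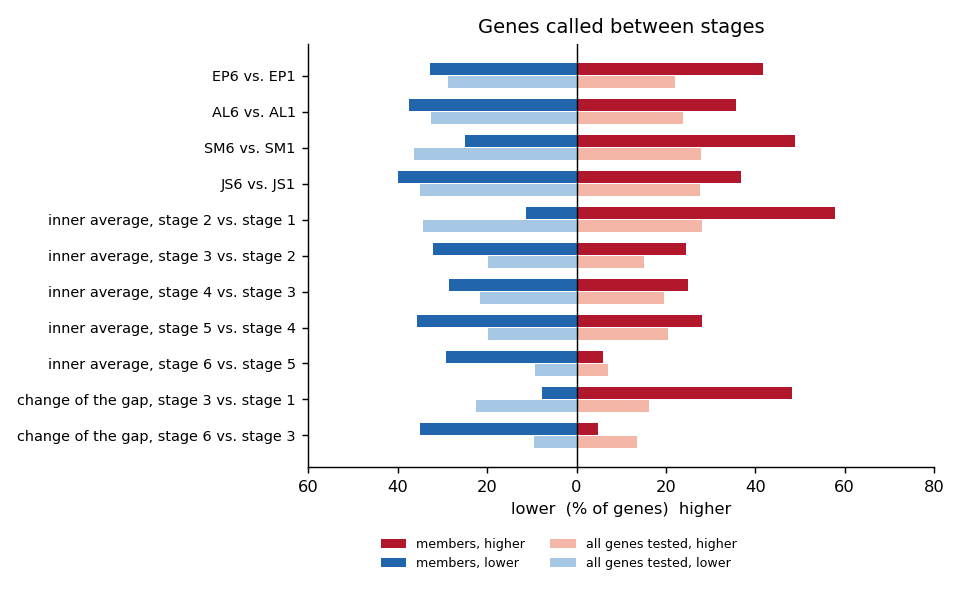
Bars show percentages of the 168 genes (dark) and of the 20077 genes tested (pale), called by limma with an adjusted p under 0.05. To the right are genes higher at the later stage, or whose inner average gained on EP. To the left are genes lower at the later stage, or whose inner average lost on EP. The inner average from stage 1 to stage 2 is the most lopsided bar of the stage comparisons, with 97 genes higher and 19 lower.

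Between stage 1 and stage 6 each tissue changed in most of the genes. In EP 125 genes were called, against 50.7% of all genes tested: 70 rose, against 22.0%, and 55 fell, against 28.7%. In AL 60 rose, against 23.9%, and 63 fell, against 32.5%, or 71 and 53 with FPKM as deposited. In SM 124 were called, against 64.3%: 82 rose, against 27.9%, and 42 fell, against 36.3%. In JS 62 rose, against 27.6%, and 67 fell, against 35.0%. Their inner average rose in 76, against 33.2%, and fell in 68, against 42.9%.

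Joint calls across the tissues were then counted. AL, SM and JS all rose in 49 genes, against 13.0% of all genes tested, and all fell in 34, near the 18.9% of all genes. An inner tissue rose while another fell in 14, against 5.39%. EP rose along with the inner average in 56 genes, against 15.6%, and fell along with it in 46, against 21.9%. Opposite calls were few and near the background: the inner average rose and EP fell in 3 genes, against 1.67%, and the inner average fell and EP rose in 7, against 3.19%. Over the 6 stages the courses of EP and AL correlated with a median r of 0.73 across the 168 genes and 0.60 across all genes tested, those of EP and SM with 0.67 and 0.61, and those of EP and JS with 0.70 and 0.62. Between inner tissues the medians were 0.82 and 0.75 for AL and SM, 0.81 and 0.70 for AL and JS, and 0.86 and 0.82 for SM and JS. These are descriptions over 6 points each, in which the tissues share the stage of the fruit.

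Cs9g17270 was the clearest case of a shared rise. At stage 1 it stood at 6.86, 11.2 and 12.1 in EP and at 24.2 to 41.7 (median 31.5) in the 9 inner libraries. At stage 6 it stood at 322, 519 and 526 in EP and at 812 to 1187 (median 978) in the inner ones. No library of stage 6 overlapped with one of stage 1 in EP or in the inner tissues, with a log2 change of 5.37 ± 0.41 in EP (limma, adjusted p = 1.3e-16) and 4.96 ± 0.24 in the inner average (limma, adjusted p = 7.1e-26). The rise came late in EP: at stage 4 its libraries were at 15.6, 22.9 and 23.5, when SM was already at 458, 485 and 514.

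Cs3g14220 rose most in the inner average, by 5.20 ± 0.17 (limma, adjusted p = 2.8e-33). Its 9 inner libraries ran from 0.0740 to 3.34 (median 0.569) at stage 1 and from 31.7 to 128 (median 56.2) at stage 6, with no overlap. Its EP libraries, at 0.492, 0.571 and 0.672 at stage 1, were among the inner ones, and at stage 6, at 22.1, 22.2 and 22.5, they lay below them. The JS libraries went from the lowest inner values, 0.0740, 0.0759 and 0.105, to the highest, 119, 124 and 128.

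Cs6g20220 fell most. It stood at 289 to 2212 (median 1369) in the inner libraries of stage 1 and at 0.299 to 5.05 (median 4.29) in those of stage 6, a log2 change of -8.22 ± 0.36 (limma, adjusted p = 2.0e-27). EP fell from 178, 211 and 230 to 2.19, 2.22 and 2.84, by -5.92 ± 0.62 (limma, adjusted p = 9.2e-12). The tissues separated at stage 1, where EP was the lowest, and at stage 6 the JS libraries, at 0.299, 0.798 and 0.840, were below EP.

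Cs4g02970 fell in like manner, from 58.9 to 677 (median 220) in the inner libraries of stage 1 to 1.08 to 6.69 (median 2.09) at stage 6, by -6.10 ± 0.29 (limma, adjusted p = 3.8e-26). Its inner average also lost most on EP between stage 3 and stage 6. EP was at 3.50, 4.02 and 4.50 at stage 3, below all inner libraries, which ran from 21.6 to 252 (the latter in replicate 1 of AL3), and at 4.42, 6.83 and 7.35 at stage 6, where the SM libraries were at 1.08, 1.26 and 2.09. The log2 difference of those changes was -4.95 ± 0.57 (limma, adjusted p = 5.4e-10). This gene met the rule through its young-fruit levels and was no EP-low gene in ripe fruit.

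Between the ends of the season the inner average passed the test in 144 genes, against 76.1% of all genes tested, and not in 24. In 8 genes, against 12.5% of all genes tested, no inner tissue taken alone differed between stages 1 and 6. Cs1g05000 had overlapping inner libraries at both ends, 445 to 938 (median 546) and 407 to 738 (median 551). The log2 change of its inner average, -0.12 ± 0.10, did not pass the test (limma, adjusted p = 0.30). That average joined opposite differences between the 2 ends, although SM and JS both had their highest mean at stage 3 (1501 and 1305). The SM libraries rose from 480, 486 and 555 to 601, 717 and 738. The JS libraries fell from 680, 892 and 938 to 506, 551 and 598, and those of AL overlapped. Between stages 1 and 6 its inner libraries reached 775 to 1780 (median 1184) at stage 3. Cs5g30100 was second by the average log2 level over the inner tissues, with a higher peak than Cs1g05000. It also had its highest values in between. Its SM libraries rose from 516, 560 and 674 at stage 1 to 2460, 2718 and 2786 at stage 2, and its inner libraries of stage 6 ran from 134 to 431 (median 204), with a log2 change from stage 1 of -1.36 ± 0.20 (limma, adjusted p = 1.7e-08). Cs5g08850 varied least over the 18 inner samples. Its inner libraries ran from 7.93 to 18.1 (median 12.9) at stage 1 and from 6.69 to 12.6 (median 9.01) at stage 6, while EP moved from 2.56, 3.06 and 3.39 to 8.01, 8.44 and 9.87. Its inner log2 change of -0.39 ± 0.17 (limma, adjusted p = 0.037) was lost with FPKM as deposited (adjusted p = 0.055) and when single libraries were left out.

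**Figure D5:**
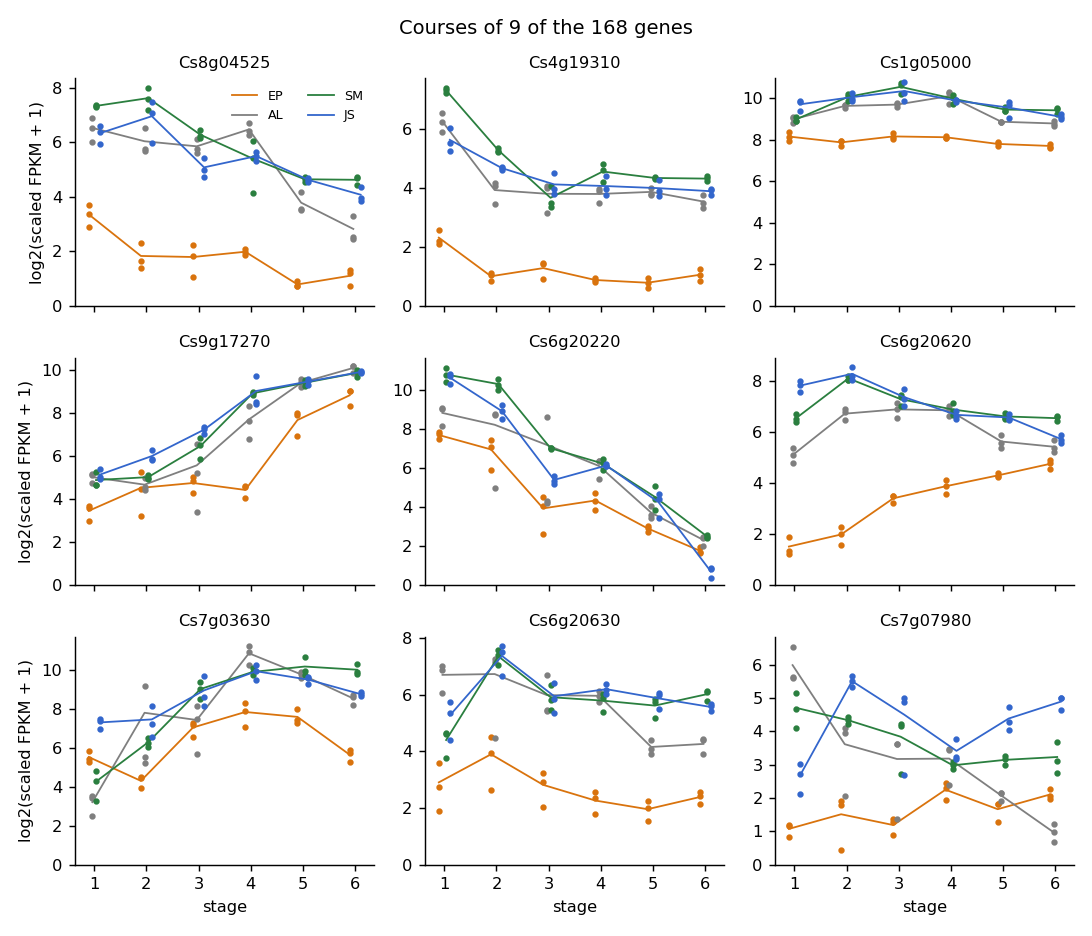
Points are libraries and lines join the values of the mean over 3 replicates, on the log2(scaled FPKM + 1) scale, for 9 of the 168 genes by stage and tissue. EP (orange) is below the inner tissues at every stage in Cs4g19310 and Cs1g05000, approaches them from below in Cs6g20620, and follows the same rise or fall in Cs9g17270 and Cs6g20220.

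The rule asks that AL, SM and JS are alike on average, and it does not fix how they differ at single stages. From stage 1 to stage 6, SM gained on AL in 59 of the 168 genes, against 15.8% of all genes tested, and lost in 7, against 13.5% (limma, test of the difference between the changes). With FPKM as deposited the counts were 36 and 19. The median of all genes for this difference was -0.39 in FPKM as deposited and 0.00 in scaled FPKM, and the counts in each direction are relative to it. JS lost against SM in 71 genes, against 16.3%, and gained in 15, against 16.9%, and with FPKM as deposited in 65 and 16. Between JS and AL 84 genes were called, against 40.2%, with 40 gained, against 21.7%, and 44 lost, against 18.6%, and were 27 and 57 with FPKM as deposited. In the 816 genes of the turned-round rule SM gained on AL in 122 and lost in 130, and JS lost against SM in 93 and gained in 176. On the log2 scale the median of the 168 genes was 0.71 for SM minus AL and -0.91 for JS minus SM, where the medians of all genes tested were 0.00 and 0.04.

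Cs6g20630 had the largest gain of SM on AL. The AL libraries were at 65.0, 116 and 126 at stage 1 and at 13.97, 19.96 and 20.5 at stage 6. The SM libraries were at 12.5, 23.4 and 24.3 and then at 53.97, 67.4 and 69.6. The order of the tissues was exchanged with no overlap at either stage, and the log2 difference was 4.06 ± 0.64 (limma, adjusted p = 1.8e-06). Its EP libraries were below all of these at both stages, at 2.72, 5.64 and 11.1 and at 3.39, 4.35 and 4.96. The gene is next to Cs6g20620 in the order of IDs, and the 2 courses correlated with r = 0.77 over the 24 samples. Of the 168 genes, 12 formed 6 pairs within 5 IDs, whose r ran from -0.23 to 0.82 with 2 of them negative, and reads shared between near-identical copies could not be checked.

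The largest loss of SM on AL was that of Cs4g02970, at 58.9, 155 and 220 in AL1, 4.21, 5.12 and 6.69 in AL6, 162, 208 and 259 in SM1 and 1.08, 1.26 and 2.09 in SM6. The log2 difference of -2.06 ± 0.70 passed the test (limma, adjusted p = 0.021) but not without replicate 1 of AL1 (adjusted p = 0.10) or in limma-voom (adjusted p = 0.065).

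In Cs7g07980, inner averages that spanned 0.897, within the limit of 1, went with opposite changes between the ends of the season. In AL it fell from 47.5, 48.8 and 90.8 at stage 1 to 0.590, 0.987 and 1.32 at stage 6, and in JS it rose from 3.40, 5.54 and 7.16 to 23.9, 31.0 and 31.1. The log2 difference was 7.22 ± 0.65 (limma, adjusted p = 1.3e-13), and both stages were without overlap. SM, at 16.2, 24.3 and 34.7 and then at 5.76, 7.60 and 11.8, lay between them, and JS gained 3.72 ± 0.65 on it (limma, adjusted p = 1.1e-05). In stage 6 fruit the AL libraries were below the EP ones, which were at 2.96, 3.16 and 3.80. The JS course between the ends was no steady rise, with a mean of 44.4 at stage 2 and 9.67 at stage 4.

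Cs6g21260 had the largest loss of JS on AL. Its JS libraries fell from 550, 580 and 599 to 23.4, 33.5 and 35.9, and its AL libraries rose from 20.4, 35.6 and 51.1 to 77.1, 106 and 159, with a log2 difference of -5.88 ± 0.84 (limma, adjusted p = 7.7e-08). At stage 1 EP, at 26.7, 41.1 and 59.2, overlapped AL, and by stage 6, at 2.36, 2.62 and 4.28, it was below every inner library.

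The largest loss of JS on SM was in orange1.1t03231, which fell in JS from 24.8, 38.3 and 40.1 to 0.238, 0.255 and 0.354 and stood in SM at 6.62, 8.07 and 8.21 and then at 6.32, 8.56 and 10.2. The log2 difference was -4.86 ± 0.52 (limma, adjusted p = 1.8e-10). The SM groups of stages 1 and 6 overlapped, with a log2 change of 0.10 ± 0.37 (limma, adjusted p = 0.83), and the JS groups did not.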

How the data were processed

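The authors sequenced poly(A) RNA of 72 libraries, filtered the reads, mapped them to the *C. sinensis* genome with TopHat and deposited an FPKM table. TopHat2, HTSeq 0.6.1 and Cufflinks are the tools in the submitters' processing notes. All 72 columns matched a sample by name and 0 columns matched none. The kit named in the labels was not stated to keep the strand, so a gene and an overlapping antisense gene cannot be told apart.

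FPKM was divided by the median ratio of each library to the geometric mean library over the 15378 genes above 0 in every library, and log2(scaled FPKM + 1) was tested with limma 3.58.1 (trend and robust settings, R 4.3.3) in 1 fit of 24 groups without a block, for genes reaching an FPKM of 1 in 3 or more libraries. A fold change on this scale understates that of low genes. Libraries count as independent in this fit, although tissues and stages came from common trees. As the dissection is described, the tissues of a stage also came from the same pooled fruits. p-values were adjusted by the Benjamini-Hochberg method over the 20077 genes. The change in gap is the change in the average of AL, SM and JS minus that in EP.

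Low FPKM values move in steps of 1 fragment. With a tolerance of 0.001, whole fragments were recovered for 27759 of the 27759 genes above 0, and served for depth and for limma-voom. The count test was an alternative and not the main test because these fragments are derived values. Scripts were tested on simulated data. Python 3.11.15 was used for tables (pandas 2.3.3, numpy 2.4.6) and plots (matplotlib 3.10.9).

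The members, the gene lists and the tests were chosen with earlier results of these data known. The lists of pathway genes and cell type markers matched no ID and gave no result. Named were the 2 genes with the largest gap, the 2 with the highest inner level, the 2 on each side of the threshold, up to 2 that rose and 2 that fell most in the inner average (an adjusted p under 0.05, 1 sign in the 3 inner tissues, no overlap of the stages and a mean of at least 10 in the higher stage, which 46 rising and 27 falling genes met), those with the largest changes of the gap, the highest and lowest difference between inner tissues, the smallest span, the highest peak of each course class and the largest change in EP, 22 genes in all. Alternatives were FPKM as deposited, a pseudocount of 0.1, no filter, a replicate block, a fit of only the libraries compared, limma-voom, leaving out 3 libraries and leaving out each library.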

Additional observations from a re-analysis of the deposited data

Results flagged for a closer look

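Each result here is a change between stages that differed between tissues by the test of the difference itself (limma, adjusted p under 0.05 over 20077 genes). The change from stage 1 to stage 6 differed between the inner average and EP in 85 of the 168 genes (41.1% of all genes tested), between SM and AL in 66 (29.3%), between JS and AL in 84 (40.2%) and between JS and SM in 86 (33.2%). The change differed between the inner average and EP in 94 genes from stage 1 to stage 3 (38.8% of all genes tested) and in 67 from stage 3 to stage 6 (23.1%), both added after the values by stage had been seen. On the log2 scale, the inner average gained on EP from stage 1 to stage 6 by 4.11 in Cs7g03630 and 4.04 in orange1.1t02791, and the difference was -4.98 in Cs4g02260 and -3.85 in Cs6g20620. To stage 3 it was 3.42 in Cs3g13440 and -2.43 in Cs1g09130, and from stage 3 to stage 6 it was 2.79 in orange1.1t00612 and -4.95 in Cs4g02970. SM minus AL was 4.06 in Cs6g20630 and -2.06 in Cs4g02970, JS minus AL was 7.22 in Cs7g07980 and -5.88 in Cs6g21260, and JS minus SM was 3.72 in Cs7g07980 and -4.86 in orange1.1t03231.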

How the results depend on the processing

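The number of genes that met the rule was 168, and 285 with scaled FPKM, of which 154 were among the 168. It was 180 with a pseudocount of 0.1 (149 shared), 153 without replicate 1 of EP2, AL2 and AL3 (150 shared), and 156 to 169 without 1 replicate number. Over the 16 comparisons, 352 of 352 counts of called members under an alternative stayed within 1.5 times the count given, leave-one-out included, and no change in a named gene reversed. Those 352 counts join both directions. Counts in 1 direction moved further in some cases. Among these were the counts with FPKM as deposited given above for SM against AL and for stage 3 to stage 4. The genes in which SM lost against AL were 13 without the 3 libraries and 4 without replicate 2 of SM6, against 7, the genes that rose from stage 5 to stage 6 were 16 in a fit of only the libraries compared, against 10, and limma-voom called 31 genes, against 48, for the narrowing of the gap over the season. Same-numbered libraries deviated together with a mean r of 0.035, and 281 of 828 pairs exceeded 0.1. For libraries of different numbers the mean r was -0.016, and 402 of 1656 pairs exceeded 0.1. Between tissues of 1 stage the mean r was 0.115, with 63 of 108 over 0.1, and between stages 1 and 6 it was over 0.1 in 3 of 3 pairs of EP and in 0 of 3 of AL, SM and JS each. Since not every pair exceeded 0.1 and the study does not say which trees a number stands for, the replicate numbers were not taken as pairs. These values do not exclude a pairing, least of all between tissues of 1 stage. In a fit with a replicate block, the inner average differed between stages 1 and 6 in 146 genes, against 144, SM gained on AL in 62, against 59, and no count moved by over 1.5 times. Left out in turn, single libraries put the number of genes that differed between SM and AL at 51 to 72, against 66, and between JS and SM at 63 to 93, against 86. The median gap at stage 3 was 1.51 with FPKM as deposited and 2.17 with a pseudocount of 0.1.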
